A study of Mus musculus with 2 samples.

Results

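The nuclear receptor transcription factors of mouse brown adipose tissue, a heat-producing fat, were described in 2 RNA sequencing libraries. Members were chosen by symbol alone: the systematic receptor names (Nr followed by a subfamily number, a letter and a number), the PPAR, RXR, RAR and ROR genes, the thyroid hormone, estrogen and vitamin D receptors and the estrogen-related receptors. The clock receptors Nr1d1 and Nr1d2 were left out. This gave 24 of 10761 gene symbols, carried by 41 of 14189 transcript rows. Another 19 symbols that the names cover, among them Rora, Vdr, Esr2, Nr4a2 and Nr0b2, were not analysed here.

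For the SML library, C57BL6/J males 8 to 12 weeks old were given SML at 5 mg per kg body weight by the intraperitoneal route during 10 days of a diet with 60% of its energy from fat. For the HFD control library, C57BL6/J males of that age range ate this diet for 10 days without SML. The labels do not expand SML, and the title of the series speaks of sesaminol, a lignan from sesame. Each group was 1 library, and the sources used here give neither the number of animals in it nor whether control mice were injected. With no replicates, every difference compares 2 libraries, has no replicate check and carries no p-value.

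Nuclear receptors bind DNA directly and most are switched by small lipophilic ligands such as fatty acids, oxysterols, retinoids, thyroid hormone and steroids. PPARs, LXRs, RARs and thyroid hormone receptors work as heterodimers with an RXR, steroid receptors mostly pair with themselves, and several orphan receptors bind as monomers. In brown fat PPARγ drives adipocyte differentiation, PPARα and the estrogen-related receptors act on fatty acid oxidation and mitochondrial genes, and thyroid hormone receptors take part in the thermogenic response.

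Of the 24 receptor genes 21 had a mean level of at least 1 FPKM over both libraries (fragments normalised to transcript length and library size, as deposited), the minimum for a gene to be compared. Differences are log2(FPKM + 1) in SML minus HFD control, and genes past 1.5-fold on this scale are called higher or lower. Ratios are of the scaled counts, SML over HFD control, with a 95% exact interval that covers counting error only. Behind each of the 21 genes stood 81 to 2821 fragments in the SML library and 79 to 3594 in the HFD control library.

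By this rule 2 of the 21 receptor genes, Esr1 and Thrb, were higher in SML and 1, Nr4a1, was lower. Among all 9870 genes compared 5.45% were higher and 5.74% lower (11.2% in either direction), beside 9.52% and 4.76% of the receptor genes, so the receptors passed the rule about as often as other genes. Their median difference was 0.01, beside 0 over all genes, and 11 of the 21 differences and 14 of the 21 ratios were on the side of SML. With the trend over GC content and transcript length removed, 1 receptor gene was higher (Esr1) and 1 lower (Nr4a1), against 3.27% and 5.33% of genes (8.6% in either direction). On the log2(FPKM + 1) scale 0 receptors reached 2-fold, a size that 0.669% of all genes reached upward and 1.97% downward (2.63% in all). The interval of the ratio left out 1 for 12 of the 21, against 48.6% of all genes. It lay wholly above 1 for 11 of the 21 and wholly below 1 for 1, against 25.0% and 23.5% of all genes compared. FPKM and scaled counts disagreed in direction for Rara and Esrrg, and close to 1 for Rxrb (0.999 by FPKM and 1.03 by scaled counts). Without Rara and Esrrg the interval lay above 1 for 9 of 19. The receptors with an interval above 1 were Pparg, Esrra, Nr2f6, Thra, Rxra, Nr3c1, Rarb, Esr1, Thrb, Rara and Esrrg.

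Some features of the 2 libraries stand beside these counts. Of 12 brown adipocyte markers compared 2 were higher (Dio2 and Zic1) and 0 lower, and 6 of the 12 differences were above 0. Ucp1, the uncoupling protein of thermogenesis, stood at 7955 FPKM in SML and 8702 FPKM in HFD control. Cox8b had the lowest difference of the 12, at -0.57, just under the rule. The markers Prdm16 and Lhx8 were under the FPKM minimum, with 33 and 14 fragments in SML against 155 and 20 in HFD control. Skeletal muscle genes were lower in SML for 18 of 18 compared, with a summed level of 301 FPKM against 4490 FPKM in HFD control, although none of the defining genes was at 0 in either library. Macrophage markers were lower for 5 of 10 and higher for 1 (282 FPKM in SML against 446 FPKM in HFD control), endothelial markers lower for 4 of 12 (318 FPKM in SML against 519 FPKM in HFD control). Erythroid markers were lower for 5 of 5 (1720 FPKM in SML against 3440 FPKM in HFD control) and hepatocyte markers for 5 of 6, with Alb and Ttr listed at 0 in SML. The difference also ran with GC content across all genes (Spearman rho -0.33). The part of other cell types in the receptor values was not tested, and fewer cells of a type and less RNA per cell cannot be told apart in such samples.

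**Figure D1:**
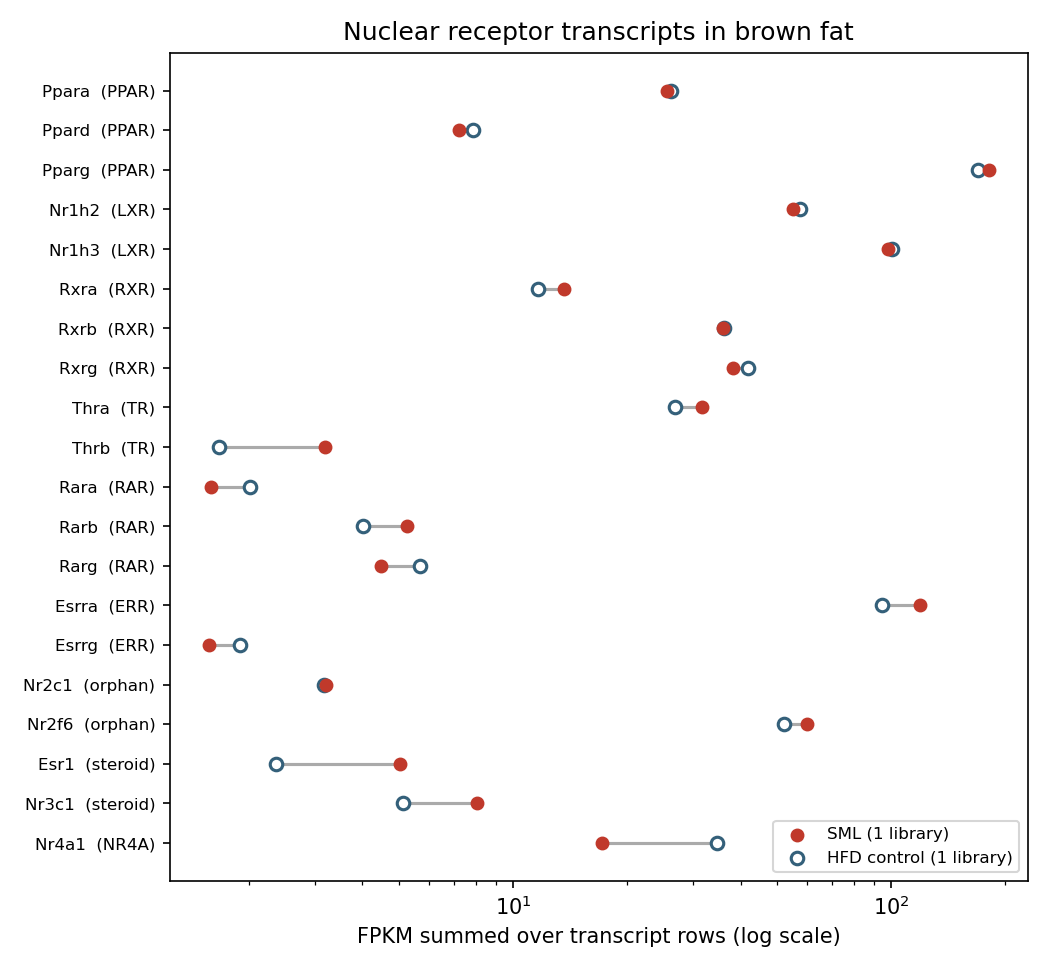
FPKM of 20 of the 21 receptor genes with a mean of at least 1 FPKM, on a log axis, in the SML library (filled) and the HFD control library (open), grouped by receptor type. Most pairs of points lie close together, while the SML point lies well to the right for Thrb, Esr1 and Nr3c1, of which Nr3c1 is under the rule, and well to the left for Nr4a1.

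Nr4a1, also called Nur77, had the largest difference in log2(FPKM + 1) of the 21 receptor genes compared. It encodes an orphan receptor that binds DNA as a monomer and is induced within minutes to hours by cyclic AMP and other signals, and its transcript spans chr15:101266846-101274794 on the plus strand of mm10. Nr4a1 stood at 17.2 FPKM in SML and 34.6 FPKM in HFD control, from 385 and 1053 fragments. The SML level was thus 2.01-fold lower (1.79 to 2.27), and the difference of -0.97 became -0.86 with the trend over GC content and transcript length removed. Its relative Nr4a3, which answers to the same kind of stimulus, was near the limit of detection with 9 fragments in SML and 14 in HFD control, and its ratio of 0.873 had an interval of 0.333 to 2.17. The SML FPKM of Nr4a3 is listed at 0 although fragments were counted.

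The windows before the annotated start sites of Nr4a1 and Nr4a3 are shown because this pair is known for cyclic AMP response elements. Each line gives the 250 bases before the start site in RefSeq's GRCm38.p6 sequence (chr15:101266596-101266845 and chr4:48045055-48045304, both plus strand), 5′ to 3′. Capitals mark the core TGACG of the cyclic AMP response element on either strand, which reads CGTCA on the minus strand.
Nr4a1: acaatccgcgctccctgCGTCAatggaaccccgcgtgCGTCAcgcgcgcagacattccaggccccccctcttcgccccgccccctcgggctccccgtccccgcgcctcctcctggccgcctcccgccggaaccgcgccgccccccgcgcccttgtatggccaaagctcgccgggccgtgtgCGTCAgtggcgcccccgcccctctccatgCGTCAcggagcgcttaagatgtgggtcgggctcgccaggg
Nr4a3: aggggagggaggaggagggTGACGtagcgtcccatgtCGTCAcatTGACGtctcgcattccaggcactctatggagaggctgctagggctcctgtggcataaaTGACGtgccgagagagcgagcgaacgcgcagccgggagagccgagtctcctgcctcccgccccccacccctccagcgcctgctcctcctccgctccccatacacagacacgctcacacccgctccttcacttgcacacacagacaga

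The core occurred 4 times in each of these windows, at 233, 213, 69 and 40 bases before the start site for Nr4a1 and at 231, 213, 205 and 147 bases for Nr4a3. Any match of TGACG was found in 17.8% of 32851 promoter windows of the same length, and 4 or more matches in 0.137%. The full palindrome TGACGTCA, present in 1.55% of windows, was in neither. Only 1 of these genes was abundant enough to compare between the libraries, and a letter match is not a bound site.

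Esr1 encodes estrogen receptor alpha, a steroid receptor that is present in adipocytes of both sexes. It lies at chr10:4611989-5005633 on the plus strand and stood at 5.04 FPKM in SML and 2.37 FPKM in HFD control. The 297 fragments in SML and 189 in HFD control gave a ratio of 2.13 (1.77 to 2.58), the highest of the 21 receptors. Esr1 kept its place past the 1.5-fold rule with the GC content and length trend removed, at a difference of 0.70 beside 0.84 as deposited. At a mean of under 5 FPKM it was one of the low receptors of the tissue.

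Thrb, the thyroid hormone receptor beta gene at chr14:17660960-18038088 on the plus strand, stood at 3.19 FPKM in SML and 1.67 FPKM in HFD control. Its ratio was 1.91 (1.51 to 2.41), from 181 and 129 fragments. The difference of 0.65 was past the rule as deposited but 0.46 with the GC content and length trend removed, under the rule. Thra, which encodes the alpha receptor, was the more abundant thyroid hormone receptor gene at 31.6 FPKM in SML and 26.9 FPKM in HFD control, and its ratio of 1.17 (1.05 to 1.31) was under the rule. Its exons share 263 bases with Nr1d1 on the opposite strand, whose own difference was -0.62, and the labels do not say that strand was kept, so reads in this stretch cannot be assigned to one of the pair. The summed scaled counts of Thra and Thrb were 1.28 times as high in SML (1.16 to 1.41).

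The windows before the locus starts of Esr1 and Thrb, the receptor genes that were higher, are given for the same motifs. They are the 250 bases of chr10:4611739-4611988 and chr14:17660710-17660959 in RefSeq's GRCm38.p6, plus strand. Capitals mark AGGTCA, the core hexamer that many nuclear receptors bind, and TGACG, both searched on either strand.
Esr1: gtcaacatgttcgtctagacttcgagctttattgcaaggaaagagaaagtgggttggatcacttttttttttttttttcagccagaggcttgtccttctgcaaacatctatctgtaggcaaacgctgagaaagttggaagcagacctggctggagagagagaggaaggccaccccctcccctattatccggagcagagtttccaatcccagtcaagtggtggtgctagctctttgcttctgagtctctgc
Thrb: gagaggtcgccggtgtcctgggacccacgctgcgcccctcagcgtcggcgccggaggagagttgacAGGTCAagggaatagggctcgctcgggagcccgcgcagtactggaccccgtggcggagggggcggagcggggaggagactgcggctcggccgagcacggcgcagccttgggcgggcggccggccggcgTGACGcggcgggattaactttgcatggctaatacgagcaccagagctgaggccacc

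The Thrb window held AGGTCA once, 184 bases before the start site, and TGACG once, 56 bases before it. The Esr1 window held neither in these letters. AGGTCA was in 14.0% of all windows. The longer monomer element AAAGGTCA, found in 1.34% of windows and known as the binding element of the NR4A receptors, was in none of these 4 windows. Esr1 and Thrb each have a further RefSeq start site downstream, and the deposited rows do not say which was used.

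Nr3c1, the glucocorticoid receptor gene, fell just outside the rule. It stood at 8.06 FPKM in SML and 5.12 FPKM in HFD control, with a ratio of 1.57 (1.38 to 1.8) from 483 and 417 fragments but a log2 difference of 0.57, since the added 1 FPKM shrinks low genes. Its difference was 0.29 with the GC content and length trend removed. Together with Esr1 and Thrb it shared a low GC content (42.2% for Nr3c1, 45.4% for Esr1 and 44.1% for Thrb, against a median of 50.8% over all genes compared). The 3 transcripts were also long, at 6330 bases for Nr3c1, 6220 for Esr1 and 6000 for Thrb. These lengths were worked out from the deposited scaled count per FPKM, beside a median annotated length of 2819 bases over all genes compared. Neither trait was particular to these 3 genes. Esrrg and Nr2c1 had 42.5% and 43.8% GC at differences of -0.17 and 0.01, though for Esrrg scaled counts pointed the other way. The Ppara rows were longer, at about 7210 and 7440 bases, and the gene's difference was -0.04. Nr3c2, the mineralocorticoid receptor gene, had 13 fragments in SML and 22 in HFD control, with a ratio of 0.803 (0.371 to 1.67).

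**Figure D2:**
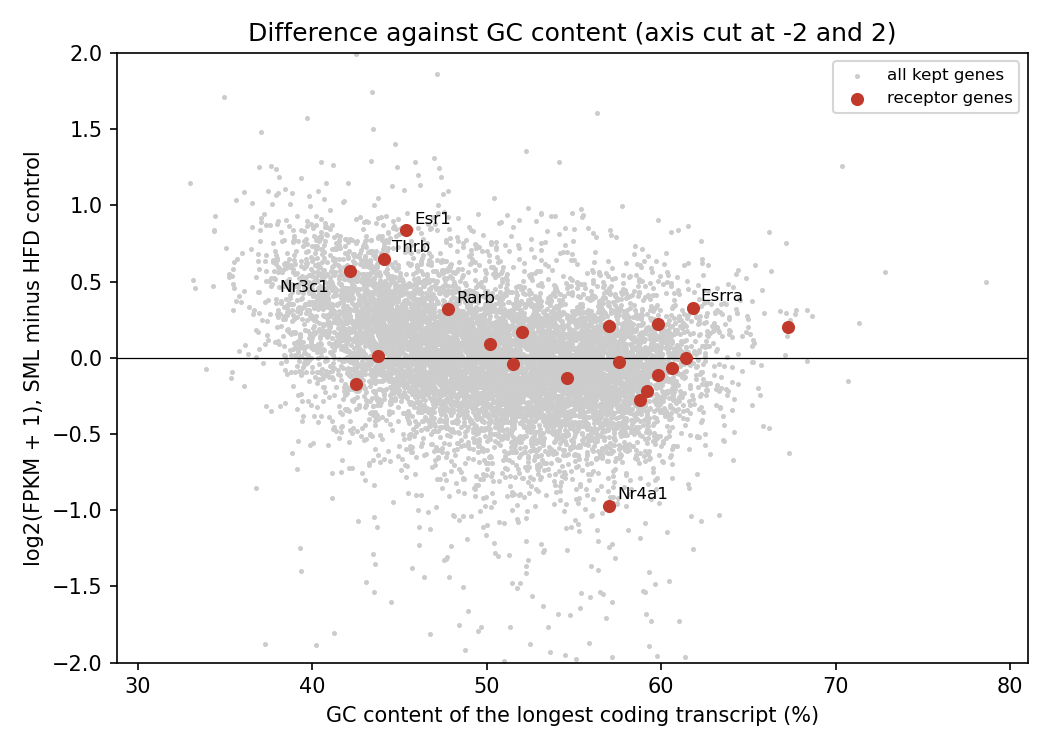
Difference in log2(FPKM + 1), SML minus HFD control, against the GC content in percent of the longest coding transcript for all genes compared (grey) and the 21 receptor genes (red), with the vertical axis cut at -2 and 2. Esr1, Thrb and Nr3c1 sit in the GC-poor range where the grey cloud is itself shifted upward. Esrrg and Nr2c1 sit in the same range at differences of -0.17 and 0.01. Nr4a1 lies at the lower edge of the cloud at 57.0% GC.

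The PPAR genes were the most abundant receptor group and differed little. They held 29.3% of the receptor FPKM in SML and 29.1% in HFD control. Pparg, the master regulator of fat cell differentiation, was the highest receptor gene in both libraries at 181 FPKM in SML and 170 FPKM in HFD control, a ratio of 1.07 (1.01 to 1.12). Ppara, which governs fatty acid oxidation, stood at 25.5 FPKM in SML and 26.3 FPKM in HFD control, with a ratio of 0.976 (0.918 to 1.04). Ppard, the broadly expressed delta member, stood at 7.20 FPKM in SML and 7.82 FPKM in HFD control, with a ratio of 0.919 (0.768 to 1.10). The summed ratio of the group was 1.02, with an interval of 0.986 to 1.06 that includes 1.

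The liver X receptor genes, whose products sense oxysterols, were the next group. Nr1h3 (LXR alpha) stood at 98.3 FPKM in SML and 101 FPKM in HFD control, and Nr1h2 (LXR beta) at 54.9 FPKM in SML and 57.5 FPKM in HFD control. Their ratios of 0.973 (0.911 to 1.04) and 0.953 (0.877 to 1.03) both had intervals that include 1.

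The RXR genes, which encode the shared heterodimer partners, summed to 87.8 FPKM in SML and 89.5 FPKM in HFD control. Rxrg was the highest, at 38.1 FPKM in SML and 41.8 FPKM in HFD control, with a ratio of 0.911 (0.816 to 1.02). Rxrb stood at 36.03 FPKM in SML and 36.07 FPKM in HFD control, with a ratio of 1.03 (0.94 to 1.13). Rxra stood at 13.7 FPKM in SML and 11.7 FPKM in HFD control, with a ratio of 1.22 (1.10 to 1.36). The 10 genes of their PPAR, LXR, RAR and thyroid hormone receptor partners summed to 413 FPKM in SML and 402 FPKM in HFD control, which is 4.70 and 4.50 FPKM of partner per FPKM of RXR.

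Retinoic acid receptor genes were low, with a sum of 11.3 FPKM in SML and 11.7 FPKM in HFD control, and 0 of the 3 passed the rule. Rarb stood at 5.24 FPKM in SML and 4.01 FPKM in HFD control (ratio 1.30, 1.02 to 1.66), while Rarg stood at 4.49 FPKM in SML and 5.67 FPKM in HFD control (ratio 0.791, 0.619 to 1.0). Of the Rarb exon bases 34.1% overlap Top2b on the opposite strand, a gene with a difference of 0.25. Rara is described with its transcript rows below, because its FPKM and scaled counts pointed in opposite directions.

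Esrra, the estrogen-related receptor alpha gene and a partner of the coactivator PGC-1α in mitochondrial gene control, was the second receptor by level in SML and the third in HFD control. It stood at 119 FPKM in SML and 94.9 FPKM in HFD control, with a ratio of 1.26 (1.19 to 1.33) from 2396 and 2592 fragments. The difference was 0.33 as deposited and 0.35 with the GC content and length trend removed, in both cases under 1.5-fold. Nr2f6, a COUP-type orphan receptor known mostly as a repressor, stood at 60.1 FPKM in SML and 52.3 FPKM in HFD control (ratio 1.15, 1.06 to 1.24), but 54.4% of its annotated exon bases overlap Ocel1 on the opposite strand. With the trend removed its difference was 0.06. Nr2c1, the TR2 orphan receptor gene, stood at 3.21 FPKM in SML and 3.17 FPKM in HFD control.

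**Figure D3:**
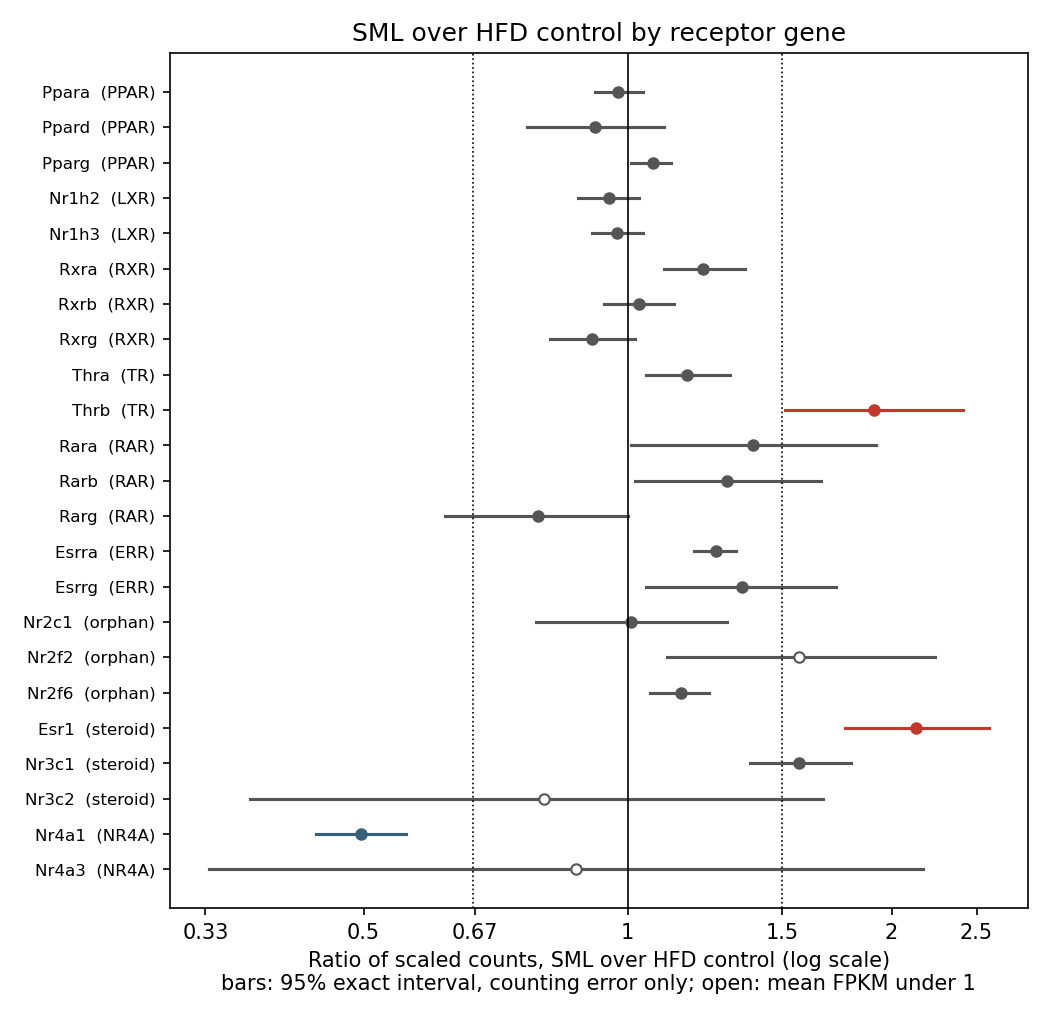
Ratio of scaled counts, SML over HFD control, for 23 of the 24 receptor genes on a log axis, with 95% exact intervals for counting error; dotted lines mark 1.5-fold, open points a mean FPKM under 1. Esr1 (2.13) and Thrb (1.91) lie to the right and Nr4a1 (0.497) to the left of the dotted lines, and Nr3c1 and Nr2f2 reach 1.57 without being counted.

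For Nr2f2, Esrrg and Rara the 2 kinds of deposited value disagreed in direction, as they did for Rxrb with both ratios close to 1. A transcript row could be listed at 0 FPKM in SML while its scaled count was above 0, which was so for 7 receptor rows in 6 genes and at scaled counts of up to 43.12. Over all deposited rows, 0 FPKM beside a scaled count above 0 occurred in 1443 rows in SML and 274 in HFD control. The Rxra ratio of 1.22 includes such a row, with 28 fragments in SML and 0 in HFD control. Nr2f2, which encodes COUP-TFII, a factor of vein and stromal cells, had 0 FPKM in SML and 1.18 FPKM in HFD control. Its fragments, however, numbered 73 in SML and 63 in HFD control, a ratio of 1.57 (1.11 to 2.24). Esrrg, the gamma estrogen-related receptor gene, had 1.57 FPKM in SML and 1.90 FPKM in HFD control but a ratio of scaled counts of 1.35 (1.05 to 1.73). Rara had 1.59 FPKM in SML and 2.02 FPKM in HFD control but a ratio of scaled counts of 1.39 (1.01 to 1.92). No direction is given for Nr2f2, Esrrg and Rara. By the ratio of scaled counts alone, 4 of the 23 receptors with at least 30 fragments were 1.5-fold higher (Esr1, Thrb, Nr3c1 and Nr2f2) and 1 was lower (Nr4a1), against 9.69% and 8.61% of genes with that many fragments. Without Nr2f2, Esrrg and Rara these counts were 3 and 1 of 20.

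Transcript rows of a gene were compared as shares of its FPKM, which the authors' assembly estimated for each row. Of the 9 compared receptor genes with more than 1 row, 2 had a row whose share differed by at least 20 percentage points, which was 22.2% of them against 31.5% of all such genes. Rxrb, near identical in total, was one of them. Its highest row in HFD control had 13.3 FPKM in SML and 22.0 FPKM in HFD control, which was 36.8% of the gene in SML and 61.0% in HFD control. The pair of longer rows, of about 2630 and 2640 bases, together had 15.3 FPKM in SML and 5.39 FPKM in HFD control, or 42.5% and 14.9% of the gene. The pair of shorter rows, of about 2360 and 2370 bases, had 20.7 FPKM in SML and 30.7 FPKM in HFD control.

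Rara was the other gene with such a shift. One row had 0 FPKM and 0 fragments in SML against 1.69 FPKM and 66 fragments in HFD control, and another had 1.59 FPKM in SML against 0.33 FPKM in HFD control. These rows had nearly equal lengths of about 3130 and 3180 bases, and together with a row listed at 0 FPKM in both libraries the gene had only 81 fragments in SML and 79 in HFD control. The row listed at 0 FPKM held 35 of the SML fragments, or 42.7% of the scaled counts in SML. By share of scaled counts the row with 1.59 FPKM shifted by 40.7 percentage points, beside 83.7 by FPKM. On that scale Esrrg also shifted, by 37.7 percentage points, which made 3 genes. In Ppara the longer row of about 7440 bases had 9.09 FPKM in SML and 5.42 FPKM in HFD control, or 35.6% and 20.6% of the gene, under the threshold for a shift. The rows of Pparg kept their proportions, with the leading row at 49.9% in SML and 51.2% in HFD control and the next at 46.9% in SML and 47.1% in HFD control. Nr1h3 was made up almost wholly of 1 row, at 98.2% in SML and 97.0% in HFD control. In Nr1h2 the 4 rows were about 2010 to 2040 bases long, and the share of 1 row was 18.5% in SML and 31.1% in HFD control.

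**Figure D4:**
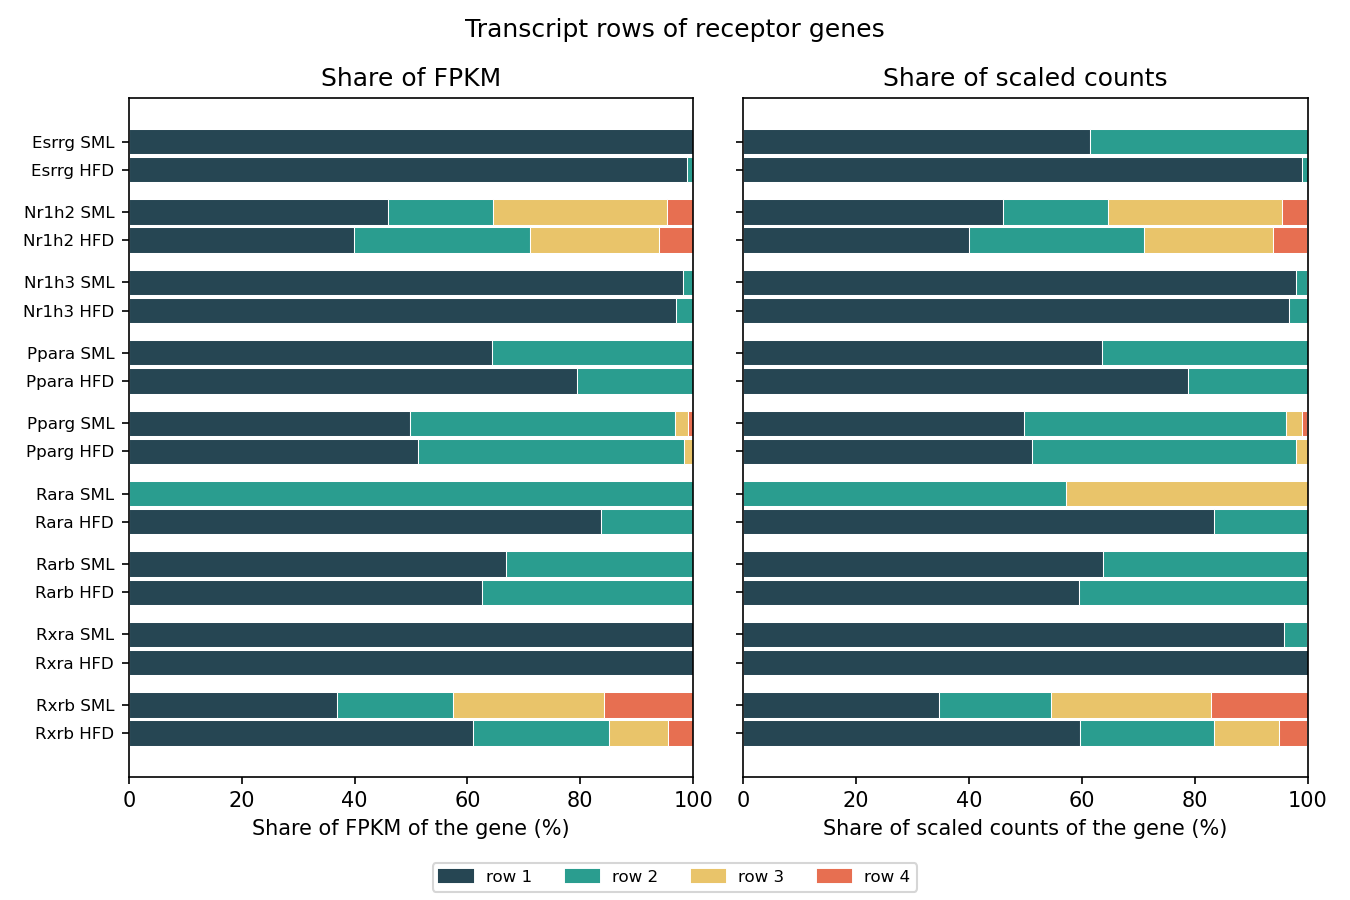
Share of each transcript row in its gene, in percent, for the 9 compared receptor genes with more than 1 row, from FPKM (left) and from scaled counts (right), with the SML bar above the HFD control bar for each gene. Rxrb shows the same change on both scales, whereas the second row of Esrrg appears in SML only on the scale of scaled counts.

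Genes that supply receptor ligands were counted beside the same shares of all genes compared, 5.45% higher and 5.74% lower. Their differences ran from -1.12 (Hsd11b1) to 0.77 (Dio2), beside -0.97 (Nr4a1) to 0.84 (Esr1) for the receptors. Dio2, the deiodinase that makes active thyroid hormone inside brown fat, was the 1 of 3 genes of thyroid hormone supply that was higher, at 15 FPKM in SML and 8.34 FPKM in HFD control (ratio 1.79, 1.62 to 1.99). With the GC content and length trend removed its difference was 0.55, just under the rule. Of 9 genes of retinoid supply and breakdown 0 were higher and 2 lower. Aldh1a1, an enzyme that makes retinoic acid, stood at 2.16 FPKM in SML and 5.83 FPKM in HFD control, 2.70-fold lower (1.88 to 3.95). Dhrs3, which turns retinal back to retinol, stood at 94.5 FPKM in SML and 175 FPKM in HFD control, 1.87-fold lower (1.74 to 2.0). At the other end of this list, Rdh10, which makes retinal, had a difference of 0.28 and Dhrs9, a related dehydrogenase, of 0.47.

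Hsd11b1, the enzyme that regenerates active glucocorticoid within fat, was the 1 of 3 steroid and sterol enzymes that was lower and 0 were higher. It stood at 58.8 FPKM in SML and 129 FPKM in HFD control, 2.20-fold lower (2.01 to 2.40), next to the Nr3c1 ratio of 1.57. H6pd, which supplies its cofactor, stood at 34.8 FPKM in SML and 34.7 FPKM in HFD control. These values sit beside the lower macrophage and endothelial markers given above, whose part in them was not tested.

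Coactivators and corepressors were counted beside the 5.45% higher and 5.74% lower among all genes compared, and lists this short cannot be told apart from these shares. Of 16 compared coactivators 1 was higher and 0 lower, with a median of 0.17. Of 11 corepressors none passed the rule, with a median of -0.04. Ncoa7 was the higher one, at 3.87 FPKM in SML and 2.24 FPKM in HFD control, and its difference of 0.59 was 0.21 with the GC content and length trend removed. Ep300, a histone acetyltransferase, had a difference of 0.46, and Ppargc1a, which encodes PGC-1α, stood at 3.38 FPKM in SML and 2.34 FPKM in HFD control. Prdm16, a brown fat coregulator outside the naming rule and picked after its values were seen, was under the FPKM minimum, with 33 fragments in SML and 155 in HFD control, 3.44-fold lower (2.36 to 5.2). It makes 1 lower coactivator without the FPKM minimum. Lpin1, at the low end of the coactivators, stood at 51.9 FPKM in SML and 61.0 FPKM in HFD control. Among corepressors Ncor1, the main nuclear receptor corepressor, stood at 3.73 FPKM in SML and 3.85 FPKM in HFD control, and the ends of the list were Ctbp1 (0.40) and Nrbf2 (-0.32).

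Target genes were counted for 6 receptor groups from lists of textbook targets. For each list the counts stand beside 5.45% higher and 5.74% lower among all genes compared. Of 29 PPAR targets 4 were higher and 1 was lower, with a median of 0.03, while the PPAR genes themselves had a summed ratio of 1.02. The ends of the list were Lpl, the lipoprotein lipase, with a difference of 1.5, Acot2, a mitochondrial thioesterase, with 0.93, and Angptl4, an inhibitor of that lipase, with -0.81. Fgf21, counted as higher, had only 16 fragments in SML and 9 in HFD control. Of 9 LXR targets 0 were higher and 1 was lower, the desaturase gene Scd1 at 2200 FPKM in SML and 3816 FPKM in HFD control, while the cholesterol exporter gene Abca1 had a difference of 0.38. Of 16 targets of the estrogen-related receptors, a list that includes Esrra itself, 0 were higher and 0 lower, with a median of -0.04.

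Of 9 thyroid hormone targets 0 were higher and 2 lower, with a median of -0.25. Only 1 of the 9 differences was above 0, against 49.9% of all genes compared. Targets that the hormone raises and targets that it lowers were counted alike, so these counts give no direction of hormone action. Both lower targets, Atp2a1 and Myh7, are muscle fibre genes, on the list of skeletal muscle markers that were lower as a whole. Thrb and Dio2 were higher by the rule, but under it with the GC content and length trend removed (0.46 and 0.55). Klf9, a target of both thyroid hormone and glucocorticoids, was the thyroid hormone target with a difference above 0. Its ratio was 1.60 (1.28 to 2.0) and its difference 0.56, just under the rule. Of 13 glucocorticoid targets 1 was higher and 0 lower, with a median of -0.03. Klf15 was the higher one, at 15.2 FPKM in SML and 9.07 FPKM in HFD control, whereas Mt2, a metallothionein gene, had a difference of -0.53. Fkbp5, a classical glucocorticoid target, stood at 0.86 FPKM in SML and 1.30 FPKM in HFD control. Its 31 fragments in SML and 64 in HFD control gave a ratio of 0.658, with an interval of 0.414 to 1.03 that includes 1. Of 4 compared targets of the ROR and REV-ERB receptors 0 passed the rule in either direction. Arntl, a core clock gene that was under the FPKM minimum and was likewise picked after its values were seen, had 9 fragments in SML and 54 in HFD control, 4.33-fold lower (2.16 to 10.2), and makes 1 lower target without that minimum.

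**Figure D5:**
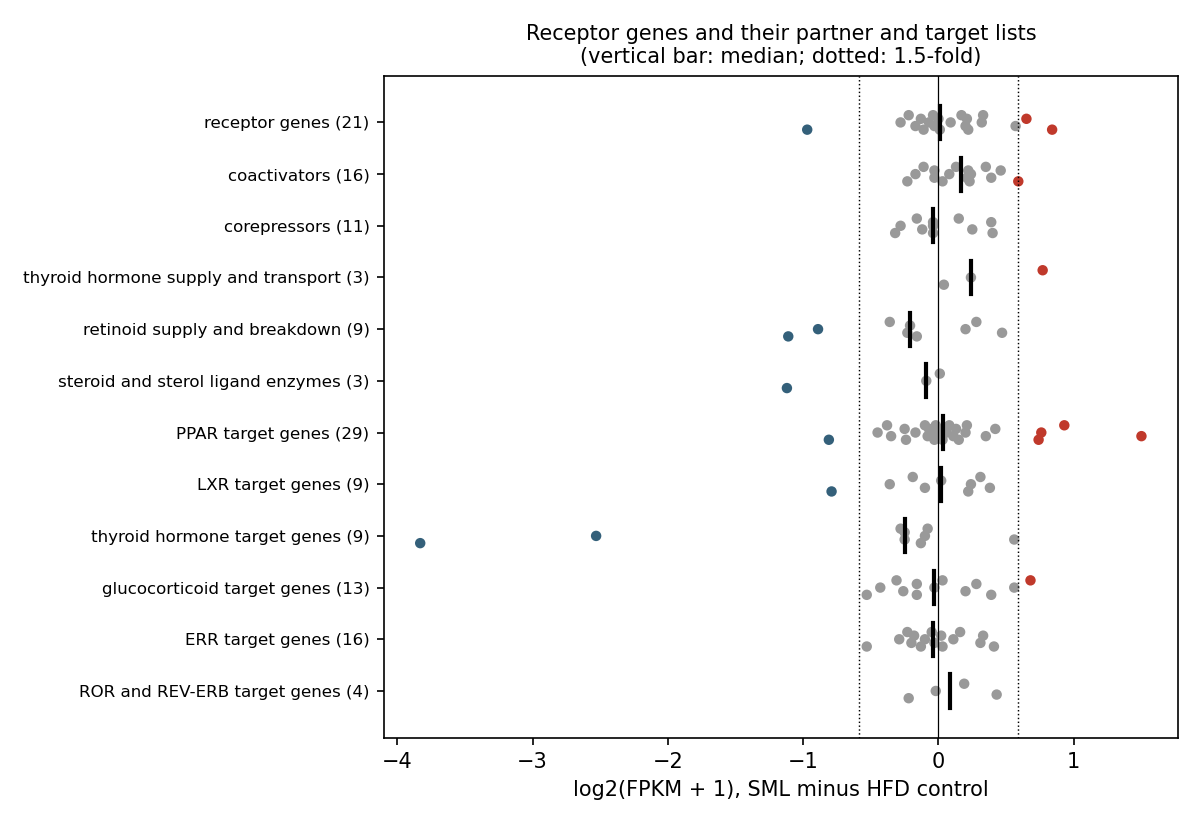
Difference in log2(FPKM + 1), SML minus HFD control, for the 21 receptor genes and the compared genes of each partner and target list, with list sizes in parentheses, medians as vertical bars and 1.5-fold as dotted lines. Most genes of every list lie between the dotted lines, and the far left points of the thyroid hormone targets are the muscle genes Atp2a1 and Myh7.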

How the data were processed

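Brown fat mRNA was sequenced from oligo-dT selected TruSeq libraries, per the labels' protocols, with CASAVA 1.8, Cufflinks and the mm10 build named in the submitters' processing notes. The sources used here name neither the aligner nor the annotation release. The deposited table holds FPKM per assembled transcript, computed by the authors, and count columns that the authors had scaled, so they are a signal and not raw counts. Low scaled counts moved in steps of 0.866 in SML and 0.637 in HFD control, taken as 1 fragment (90.8% and 90.7% of low values were whole within 0.1). This gave 8502352 SML and 11995913 HFD control fragments.

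Rows were summed per symbol, without 30 rows whose 17 symbols had become dates. Intervals are exact conditional binomial (Clopper-Pearson) at 95%, for counting error only; scaled counts of several rows are estimates. With 1 library per group no test was possible. GC content and length came from GENCODE M21 (24 of 24 receptors, 96.5% of compared genes), and their trend was removed by lowess. Transcript lengths were read from scaled count per FPKM, calibrated on 460 genes with a median error of 34 bases. Of the calibration genes 76.5% lay within 200 bases, and the line was refitted to genes within that distance, so the lengths are approximate. Table starts count from 0 and were raised by 1. RefSeq promoter windows matched 21 receptors; protein sequences were not used here. Receptors and lists were chosen with earlier results of these data known. Receptors are described one by one, except 1 that is counted but not reported here by name; from every other list up to 2 genes at each end of the difference, plus Ppargc1a, Ncor1, Nrip1, Dio2, Fkbp5, Klf9, Rdh10, Aldh1a1 and Abca1 where measured. Python 3.11.15, scipy 1.17.1 and statsmodels 0.14.6 were used, and scripts were tested on simulated data.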

Additional observations from a re-analysis of the deposited data

How the results depend on the processing

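Of 182 recomputed differences of the 21 receptors 162 lay inside the counting interval of the ratio and 20 outside it. Settings that change only the filter leave each difference as reported, so their part of this tally was fixed in advance. The intervals are of scaled counts, and the reported differences of Rara and Esrrg already lay outside theirs. The tally therefore does not measure how far the results depend on processing. Esr1, Thrb and Nr4a1 kept their sign in every setting that compared them. Higher receptors numbered 2 as reported, 3 (Nr3c1 joined) at a pseudocount of 0.1 FPKM, on scaled counts and with equal totals outside the 50 highest genes, 1 (Esr1) with the GC content and length trend removed, 0 at a mean of 5 FPKM and 0 by a 2-fold rule. Lower ones numbered 1 as reported, 2 without a filter, 2 from at least 30 fragments (Nr2f2 joined in both), 2 with the highest row per symbol (Rxrb joined) and 0 by a 2-fold rule. The receptor median was 0.01 as reported, 0.18 on scaled counts, 0.09 with the highest row, 0.06 with the trend removed, 0.05 with equal totals outside the 50 highest genes, 0.02 at a pseudocount of 0.1, 0.00 at 5 FPKM, 0.00 from 30 fragments and -0.02 without a filter. The median over all genes was also 0.05 with equal totals and -0.02 without a filter. It was 0.00 on scaled counts and 0.01 with the highest row. Partner and target genes had 7 higher and 7 lower of 116, with 12 higher at a pseudocount of 0.1, 12 from scaled counts, 4 at 5 FPKM, and 1 higher and 4 lower by a 2-fold rule. Over all 9870 genes 538 (5.45%) were higher and 567 (5.74%) lower. These counts were 847 and 831 at a pseudocount of 0.1 and 883 and 818 on scaled counts. They were 658 and 488 with equal totals, and 66 and 194 by a 2-fold rule. With the trend removed they were 311 and 508 of 9524, and with the highest row 712 and 693 of 9832. At 5 FPKM they were 319 and 305 of 6145, and from 30 fragments 535 and 927 of 10237. Without a filter they were 571 and 1115 of 10761. Rebuilding FPKM listed at 0 from scaled counts, chosen after seeing the data, left 2 higher and 1 lower receptor and turned Esrrg to 0.35. Scaled counts gave 0.43 for Esrrg and 0.47 for Rara. Small differences also turned sign for Nr1h2, Nr1h3, Ppara, Nr2c1 and Rxrb under 1 or more settings. The cause of each change was not tested. No paired analysis was possible because each group had 1 library.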
